A study of Mus musculus with 12 samples.

Results

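The 10 genes described here control the entry of cells into the division cycle and their exit from it: the inhibitors Cdkn1a, Cdkn1b, Cdkn1c and Cdkn2a, the pocket protein gene Rb1, the D-type cyclins Ccnd1, Ccnd2 and Ccnd3, the kinase gene Cdk6, and Myc. They were chosen by name, with earlier results of these data known. Their accessible sites are the ATAC-seq peaks centred in the gene or at most 10 kb outside it, which gave 23 of the 34118 wild-type (WT) peaks and 18 of the 27187 Runx1 knockout (KO) peaks. All 10 genes were found in the gene table, 8 had a WT peak and 7 had a KO peak.

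ATAC-seq uses the Tn5 transposase to cut open chromatin, so that reads pile up at accessible sites. The cells were C2C12, an established mouse myoblast line, either WT or Runx1KO, kept in growth media with 20% FBS and taken at day 0, with 3 samples per genotype. Runx1 encodes a transcription factor of the RUNX family. All peak intervals and values come from the replicate 1 library of each genotype, so none of the values has a replicate error, and the labels do not say whether the knockout line is 1 clone. The samples of day 2 in differentiation media were not analysed here. The comparison asks which accessible sites of these genes are listed in both genotypes and which in 1 of them. A peak is called shared when it overlaps a peak of the other list and specific when it does not, as the authors' deposited lists have it.

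Cyclins of the D type bind Cdk4 or Cdk6, and the active kinase phosphorylates the Rb1 protein, which then releases the E2F factors that switch on genes for DNA synthesis. The Cdkn1 family and the Ink4a product of Cdkn2a hold these kinases back, while Myc pushes cells into the cycle. A myoblast must leave the cycle before it fuses into a myotube, and Cdkn1a, Rb1 and Ccnd3 are known for their part in that step.

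At Runx1 itself, the targeted gene, 19 WT and 12 KO peaks were listed, which does not read out the edited allele. Of 7 myoblast marker genes 5 had a WT peak and 4 a KO peak. Myod1, Des and Cdh15 had 2 shared peaks each, Chrna1 had 2 shared and 1 WT specific, and Pax7 had 1 WT specific alone. Myf5 and Myog had none. The 3 blood markers and the liver marker Alb had none either. Of 3 epithelial, 2 neuronal and 2 endothelial markers 2, 1 and 2 had a peak, and the neuronal Syn1 had 9 WT peaks. No peak of either list was found at 34.2% of all protein-coding genes. A peak at a gene is not its expression.

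Of the 23 WT peaks at the 10 genes, 18 were shared and 5 were WT specific, a share of 21.7% (Wilson interval 9.66 to 41.9). In the whole WT list 27.3% of peaks were WT specific, which lies within that interval. Of the 18 KO peaks, 17 were shared and 1 was KO specific, a share of 5.56% (interval 0.988 to 25.8), against 9.59% of the whole KO list. WT specific peaks were found at 5 of the 8 genes with a WT peak, namely Rb1, Ccnd1, Ccnd2, Cdk6 and Myc, and 39.1% of all protein-coding genes with a WT peak had at least 1. The KO specific peak was at Rb1, the only one of the 10 genes to have one, and 12.3% of protein-coding genes with a KO peak had at least 1. The gene shares of 39.1% and 12.3% are not matched for gene length. The shares of both whole lists thus lie within the intervals of the 10 genes.

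**Figure D1:**
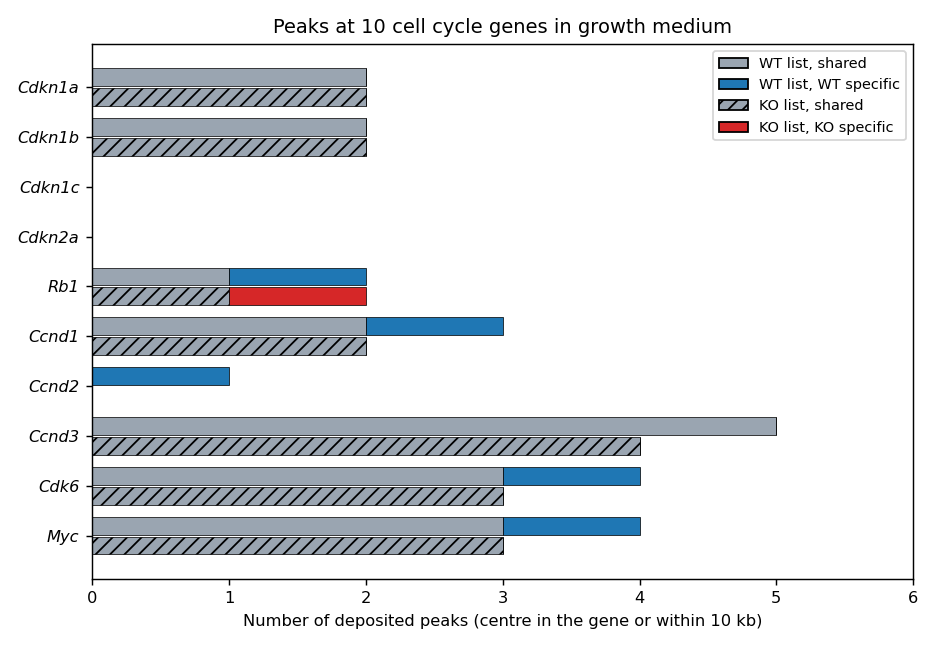
Number of deposited peaks (x axis) at each of the 10 genes (y axis), with the WT list in the upper and the KO list in the lower bar of each pair; grey is shared and colour is specific to 1 list. Cdkn1a and Cdkn1b have 2 shared peaks in each list, Cdkn1c and Cdkn2a have none, and Ccnd2 has 1 WT specific peak alone.

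The promoter table held 8 start sites for Cdkn1a, Cdkn1b, Cdkn2a, Ccnd3 and Cdk6. Peaks of both lists overlapped 4 of these 8 windows and no peak overlapped the other 4. For the 4 overlapped windows, the bases before the first transcribed base that lie inside the WT peak are shown, because they are the promoter DNA inside a WT peak that the KO list shares. The KO peak holds the whole Cdkn1a stretch and begins inside each of the other 3. They are given 5′ to 3′ on the plus strand, from RefSeq, build GRCm38.p6. Capitals mark matches, on either strand, to 9 motifs: RUNX (TGTGGT), ETS (CCGGAA), AP-1 (TGANTCA), TEAD (GGAATG), E-box (CANNTG), the MYC E-box (CACGTG, which every E-box search also finds), E2F (TTCCCGC), the CCAAT box (CCAAT) and SP/KLF (GGGCGG).
Cdkn1b, chr6:134920151-134920400: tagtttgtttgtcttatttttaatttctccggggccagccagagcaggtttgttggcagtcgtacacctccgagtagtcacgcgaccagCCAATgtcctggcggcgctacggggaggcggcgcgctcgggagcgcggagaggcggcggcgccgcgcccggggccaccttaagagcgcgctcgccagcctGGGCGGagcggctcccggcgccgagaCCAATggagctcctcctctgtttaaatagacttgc
Cdkn1a, internal start, chr17:29093553-29093768: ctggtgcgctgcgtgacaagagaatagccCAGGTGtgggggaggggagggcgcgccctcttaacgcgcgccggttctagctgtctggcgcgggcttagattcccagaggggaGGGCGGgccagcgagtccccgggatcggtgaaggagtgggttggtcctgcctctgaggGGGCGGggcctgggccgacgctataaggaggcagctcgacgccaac
Ccnd3, internal start, chr17:47593238-47593466: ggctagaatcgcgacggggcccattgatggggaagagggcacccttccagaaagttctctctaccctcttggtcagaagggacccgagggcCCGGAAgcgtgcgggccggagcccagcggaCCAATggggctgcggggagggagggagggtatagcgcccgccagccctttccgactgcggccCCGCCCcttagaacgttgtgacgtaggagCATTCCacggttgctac
Cdk6, chr5:3343811-3343892: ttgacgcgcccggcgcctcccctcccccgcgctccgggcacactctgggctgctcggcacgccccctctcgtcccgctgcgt

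The Cdkn1b stretch holds 2 CCAAT boxes and 1 SP/KLF match, that of Cdkn1a 1 E-box and 2 SP/KLF matches, and that of Ccnd3 1 match each to ETS, the CCAAT box, SP/KLF and TEAD. No match lies in the Cdk6 stretch. The RUNX letters were found in 0 of the 8 member promoters of 300 bases and in 16.8% of the 32851 promoters of that length in the table. ETS letters were found in 1 of the 8, against 14.9% of the table, E-boxes in 3, against 72.3%, and SP/KLF letters in 6, against 35.7%. For the CCAAT box it was 3 of 8, against 37.4%, for TEAD 1, against 14.7%, for E2F 1, against 4.60%, and for the MYC E-box 1, against 7.15%. AP-1 letters were in none, against 7.81%. A match is a description of letters, and no match says only that these letters are not in these windows.

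The inhibitors Cdkn1a and Cdkn1b had shared peaks alone. Cdkn1a encodes a general inhibitor of cyclin-dependent kinases that p53 and Myod1 can induce. The gene spans chr17:29090979-29100722 on the plus strand. Its WT peaks lay at chr17:29093553-29093807, with a −log10 q of 8.83 and a fold of 5.57, and at chr17:29095408-29095684, with a fold of 10.8 and a −log10 q of 29.0. The fold is the authors' ratio for the peak and −log10 q its significance, and both describe a peak within its own list. In the KO list the overlapping peaks had a −log10 q of 15.4 and 26.4. The first pair covers the internal start whose sequence is shown above, and no peak of either list covered the start at the lower end of the gene. The second KO peak was 699 bp wide and the WT peak inside it 277 bp.

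Cdkn1b, whose product blocks the kinases of resting cells, spans chr6:134920401-134925525. Its WT peak at chr6:134920085-134920718 was centred on the start of the gene, with a fold of 12.4 and a −log10 q of 33.4, at percentile 81.1 of the WT list. The KO peak there had a fold of 11.2 and a −log10 q of 30.8, at percentile 78.8 of the KO list. The second shared peak, at chr6:134928352-134928841 in the WT list, lay 3.07 kb beyond the gene and 496 bp from an end of Lockd, a long noncoding RNA gene. Its summit lay 207 bp lower in the KO list. Within 50 kb of Cdkn1b all 6 WT and all 6 KO peaks were shared.

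Cdkn1c and Cdkn2a had no peak of either list, as did 34.2% of all protein-coding genes. Cdkn1c, an imprinted inhibitor of the same family as Cdkn1a, is 2.72 kb long. The nearest WT peaks were 162 kb below it and 87.9 kb above it. The nearest KO peak on the lower side, at 33.7 kb, was KO specific, lay at chr7:143424529-143424697 inside Kcnq1, and had a −log10 q of 11.7. Between the WT peaks on either side of it 5 WT call numbers were missing.

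Cdkn2a encodes Ink4a and Arf, which restrain the Rb1 and p53 pathways, and lies on the minus strand of chromosome 4. Neither of its 2 promoter windows was covered by a peak. The nearest peaks on the lower side were shared and 16.5 kb away in the WT list, with a −log10 q of 28.3, and on the higher side the first WT peak was 192 kb away. Cdkn2b, the neighbouring inhibitor gene in that interval, also had no peak. The copy number of this interval in the cells was not tested.

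**Figure D2:**
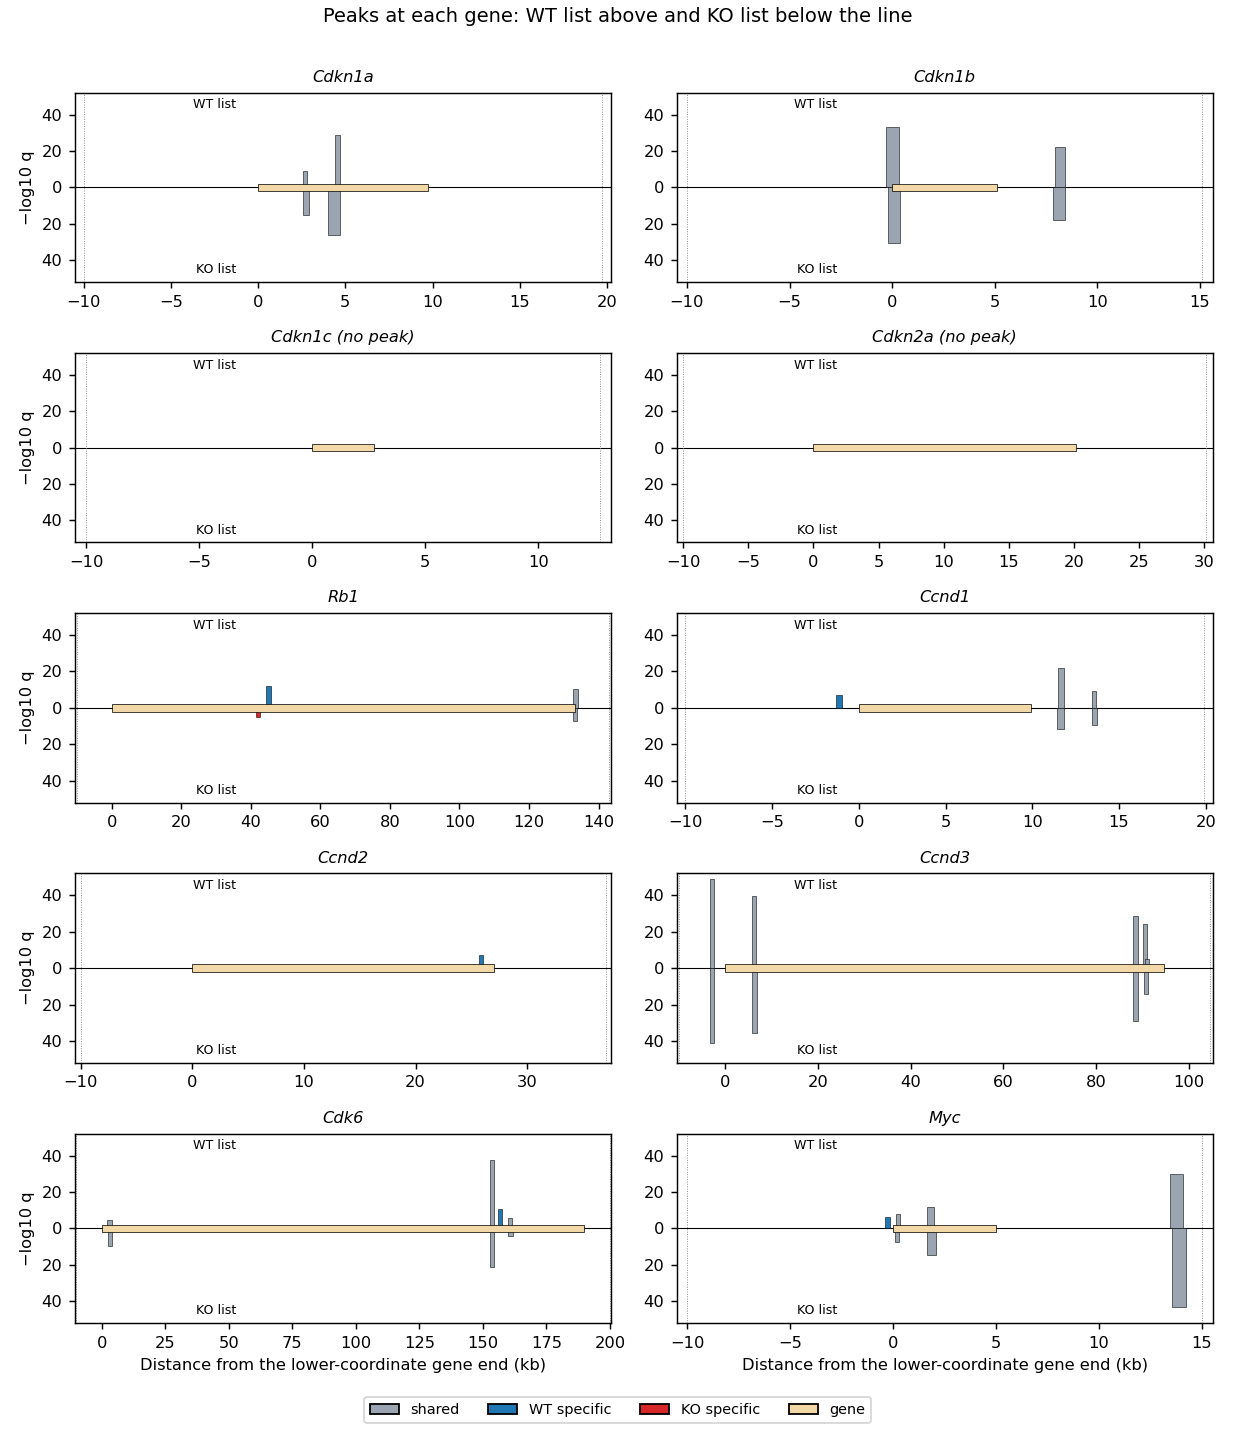
Peaks at each gene against the distance from its lower-coordinate end (x axis, kb), with the authors' −log10 q of the WT list above and of the KO list below the line; dotted lines mark 10 kb beyond the gene, no peak centred farther out is drawn, and narrow peaks have a minimum width. The specific peaks drawn, in blue and red, have a −log10 q of at most 11.8, while the highest bars drawn belong to shared peaks, at Ccnd3 in the WT list and at Myc in the KO list.

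Rb1, the gene of the pocket protein that holds E2F factors, was the only one of the 10 genes with specific peaks of both lists. It spans chr14:73192858-73325951. The shared peak sat 0.238 kb beyond the higher end of the gene, at chr14:73325996-73326381 in the WT list with a fold of 7.59 and a −log10 q of 10.3, and at chr14:73326017-73326226 in the KO list with a fold of 6.09 and a −log10 q of 7.18. The KO interval lay wholly inside the WT one and the summits were 8 bp apart.

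The WT specific peak, at chr14:73237869-73238070, had a fold of 8.29 and a −log10 q of 11.8, the highest of the 5 WT specific peaks. The KO specific peak, at chr14:73234761-73235009, had a fold of 4.74 and a −log10 q of 4.82, at percentile 3.59 of the KO list. They were 2.86 kb apart inside Rb1. Peak names are numbered along each chromosome, so that a number missing between neighbouring peaks points to a call that is not in the list analysed here. In the stretch around the WT specific peak 1 KO number was missing, and in that around the KO specific peak 1 WT number was missing. Where in each stretch the missing call lay is not known. Both specific peaks at 1 gene were found at 3.33% of all protein-coding genes. This share counts genes without a peak too and is not matched for length, and Rb1 stands at percentile 92.2 of gene length.

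The WT specific peak lay over the start of Lpar6, a lysophosphatidic acid receptor gene inside Rb1. It was the only specific peak of the 10 genes to reach a promoter window of the table. That table holds no window for Rb1, Ccnd1, Ccnd2 or Myc themselves, so overlap of specific peaks with their own promoters could not be read. The 250 bases before the Lpar6 start are shown because their last 22 bases lie in the peak. They are chr14:73237641-73237890 on the plus strand, with the same marking of motifs. This gene was chosen after its values were seen.
Lpar6: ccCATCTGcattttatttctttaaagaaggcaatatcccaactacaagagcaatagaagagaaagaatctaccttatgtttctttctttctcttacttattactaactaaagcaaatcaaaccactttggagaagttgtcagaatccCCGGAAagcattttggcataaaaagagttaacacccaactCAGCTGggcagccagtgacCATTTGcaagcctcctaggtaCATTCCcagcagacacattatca

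It holds 3 E-boxes, 1 ETS match and 1 TEAD match, and no RUNX match. Its GC content was 39.2%, against 64.4% in the Cdkn1b stretch and 78.0% in that of Cdk6. Genes whose counts are like those of Rb1, with 1 shared WT, 1 WT specific and 1 KO specific peak, numbered 114 of the other 21630 protein-coding genes. The 3 closest to it in length among these were Evl, Col4a3 and Col5a2, with counts compared over 2 libraries.

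The D-type cyclins differed in their number of peaks. Ccnd3 had the most of the 10 genes, 5 in the WT and 4 in the KO list, all shared. Ccnd1 had 2 shared peaks and 1 WT specific peak. Ccnd2 had 1 WT specific peak and no KO peak.

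Ccnd3, the cyclin kept at high levels in differentiating muscle, spans chr17:47505051-47599689. The strongest WT peak of all 10 genes was assigned to it, at chr17:47501894-47502412, with a fold of 16.0 and a −log10 q of 48.8, at percentile 91.5 of the WT list. The KO peak there had a fold of 13.1 and a −log10 q of 41.3, at percentile 89.3 of the KO list. This pair lies 2.90 kb below the gene and over a start of Taf8, a general transcription factor gene, whose end was nearer than that of Ccnd3. The peak at chr17:47511074-47511502, 6.24 kb inside Ccnd3, had a −log10 q of 39.9 in the WT and 35.6 in the KO list.

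Over the internal Ccnd3 start shown above, the −log10 q was 28.8 in the WT and 29.1 in the KO list, and the widths were 551 and 539 bp. Further in, the WT list had 2 peaks, at chr17:47595463-47595750 and chr17:47595878-47596051, where the KO list had 1 peak of 533 bp, at chr17:47595491-47596023. The counts of 5 and 4 therefore come from 1 interval that was split in the WT list. The first start of Ccnd3, at the lower end of the gene, was not covered by a peak.

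Ccnd1, the cyclin that responds to growth factors, spans chr7:144929931-144939831. No peak centre lay inside it. Its WT specific peak, at chr7:144928629-144928979, lay 1.13 kb below the gene and inside LTO1, with a fold of 5.77 and a −log10 q of 7.07, at percentile 15.2. The nearest KO peak was 12.4 kb away, and 2 KO numbers were missing in the stretch. On the other side, 1.75 kb beyond the gene, the shared peak at chr7:144941391-144941770 had a fold of 9.27 and a −log10 q of 21.9 in the WT list and a fold of 5.77 and a −log10 q of 11.4 in the KO list. These stand at percentile 64.0 of the WT and 27.7 of the KO list. The lists differ in length and in unknown depth, so no change is read from these values. The peak 3.67 kb beyond the gene had a −log10 q of 9.15 in the WT and 9.41 in the KO list.

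Ccnd2, another D-type cyclin, spans chr6:127125162-127152188. Its single peak, at chr6:127150970-127151106, was WT specific and 137 bp wide, with a fold of 5.60 and a −log10 q of 7.48. It lay 1.15 kb inside the higher end of the gene, where the gene overlaps the noncoding 9330179D12Rik. The nearest KO peak was 41.1 kb away, and 2 KO numbers were missing in the stretch that holds it. The same counts, 1 WT specific peak with no shared WT and no KO specific peak, were found at 870 of the other 21630 protein-coding genes.

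Cdk6, the kinase partner of the D-type cyclins, is the longest of the 10 genes at 190 kb and spans chr5:3341004-3531008. All of its peaks lay inside it. The strongest, at chr5:3494275-3494991, had a fold of 14.2 and a −log10 q of 37.4 in the WT list and a fold of 9.76 and a −log10 q of 21.0 in the KO list. The WT specific peak lay 2.52 kb from that KO peak, at chr5:3497530-3497897, with a fold of 6.26 and a −log10 q of 10.5. Here the KO numbers of the neighbouring peaks follow each other directly, with 0 missing, so the numbering leaves no room for a KO call between them. It was the only one of the 5 WT specific peaks of which this holds, and in the whole WT list it held for 12.9% of the WT specific peaks.

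Another site inside Cdk6, at chr5:3501655-3501925, was shared, with a −log10 q of 5.80 in the WT and 4.04 in the KO list. At its promoter the peak was 379 bp wide with a −log10 q of 4.64 in the WT list and 782 bp wide with a −log10 q of 9.59 in the KO list. The summits there were 304 bp apart. Below the gene, 39.7 kb away, a shared peak at chr5:3300867-3301735 had a −log10 q of 49.6 in the WT and 45.5 in the KO list.

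Myc, the growth-promoting transcription factor gene, spans chr15:61985341-61990361 and had 4 WT and 3 KO peaks. Its WT specific peak, at chr15:61984968-61985189, lay 0.263 kb below the gene, with a fold of 3.96 and a −log10 q of 6.38. The nearest KO peak was 267 bp away, the shortest such distance of the 6 specific peaks. Since 5 KO numbers were missing in a stretch of 375 kb below that KO peak, it is not known whether one of them lay at the WT specific peak.

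The shared peaks at Myc lay 0.23 kb inside the gene, with a −log10 q of 7.75 in the WT and 7.28 in the KO list, further inside it, with 11.9 and 14.4, and 8.74 kb beyond it. The last, at chr15:61998801-61999403 in the WT list, had a fold of 11.6 and a −log10 q of 30.0, and in the KO list a fold of 13.1 and a −log10 q of 43.4, the highest KO value of the 10 genes. It is also the included peak farthest from a gene. The nearest peaks outside the limit of 10 kb lay at Ccnd3, 11.3 kb away in the WT list with a −log10 q of 2.40, and 11.7 kb away in the KO list with 14.3.

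**Figure D3:**
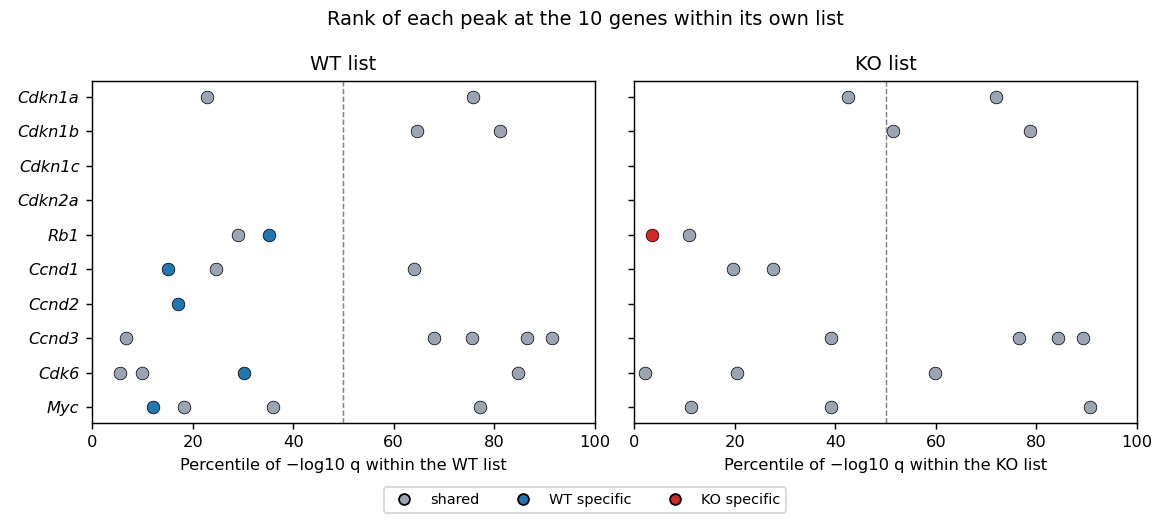
Percentile of −log10 q of each peak at the 10 genes (x axis) within the WT list on the left and the KO list on the right; the dashed line is the list's median. All 5 WT specific peaks lie left of the dashed line, and the KO specific peak lies at percentile 3.59.

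Within each list the median strength of the peaks at these genes was below that of all peaks. In the WT list their −log10 q ran from 4.64 to 48.8 with a median of 11.8, against 16.1 for the list, and 10 of 23 were above the list's median. In the KO list it ran from 4.04 to 43.4 with a median of 14.9, against 17.6, and 8 of 18 were above the median. The 5 WT specific peaks had a −log10 q from 6.38 to 11.8, on either side of the 8.38 that is the median of all WT specific peaks.

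Shared sites overlap by definition, so their summits and widths were compared. Of 16 pairs in which 1 WT peak met 1 KO peak, 8 had summits within 50 bp of each other, with a median distance of 40.5 bp. Over all 24065 such pairs 69.1% were within 50 bp and the median was 30 bp. The KO interval was the wider one in 12 of the 16 pairs (75.0%), against 52.1% of all pairs. The KO peaks at the 10 genes covered 8588 bp with a mean fold of 7.84, and the WT peaks 8269 bp with a mean fold of 8.23. The KO length was thus 104% of the WT length here and 89.2% of it over the whole lists. Width depends on depth, whose part in this was not tested.

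**Figure D4:**
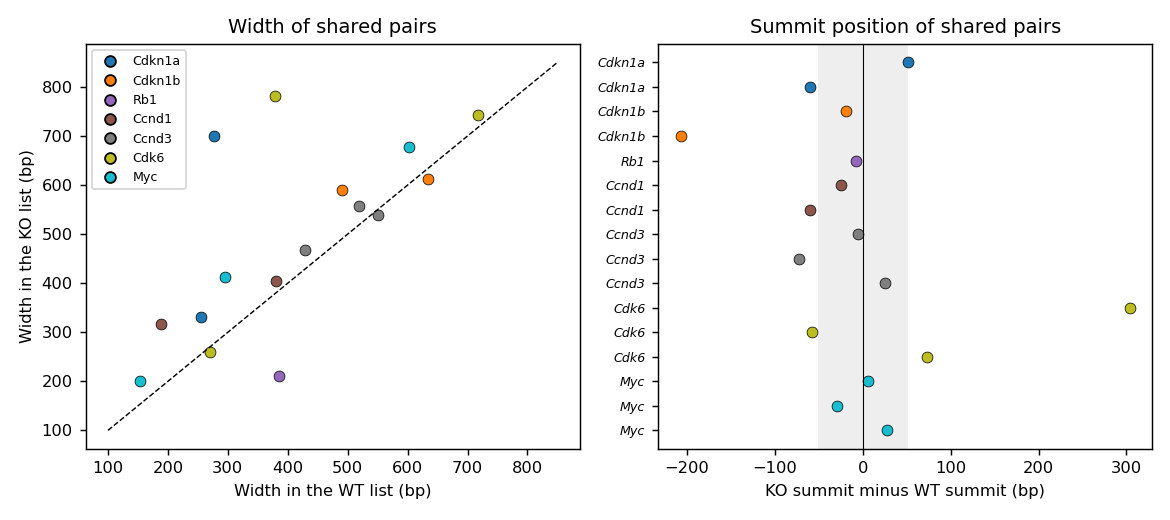
Left, width of the 16 one-to-one shared pairs in the WT list (x axis, bp) and the KO list (y axis, bp), with the line of equal width; right, KO summit position minus WT summit position (x axis, bp), with 50 bp on either side shaded. The points lie above the line in 12 pairs, and the largest summit distances are 304 bp at Cdk6 and 207 bp at Cdkn1b.

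A wider window of 50 kb on either side added shared and specific peaks. Within it 11 of 48 WT peaks (22.9%) were WT specific, against 27.3% of the whole WT list. Of 40 KO peaks 4 (10%) were KO specific, against 9.59% of the whole KO list. Cdkn1a then had 2 WT specific peaks, 39.9 kb and 27.4 kb below it, with a −log10 q of 4.69 and 10.1. The nearer one lay in Trp53cor1, a long noncoding RNA gene, and the other in no gene of the table. Rb1 had 3 WT specific peaks in all, the 2 new ones lying in Rcbtb2 and Itm2b. Besides the one near Cdkn1c, KO specific peaks appeared at Ccnd1, 31.7 kb from the gene, and at Cdk6, 18.8 kb from the gene, with a −log10 q of 5.74 and 13.2. Ccnd1 gained 1 WT specific peak, 43.0 kb above it with a −log10 q of 6.88, and Ccnd3 the one named above at 11.3 kb. No WT specific peak was gained at Cdkn1b, Cdkn1c, Cdkn2a, Ccnd2, Cdk6 or Myc.

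The other genes of the cell cycle were taken from a list of 45, of which 43 had a peak. Cdkn2b and Mycn had none. WT specific were 16 of their 87 WT peaks (18.4%) and KO specific 2 of 73 KO peaks (2.74%). The Wilson interval of the WT share was 11.6 to 27.8, which holds the 27.3% of the whole WT list. That of the KO share was 0.755 to 9.45, just below the 9.59% of the whole KO list. These intervals treat peaks as independent and cover counting only. Over 11 alternatives this KO share ran from 0 to 12.3%. WT specific peaks were present at 11 of the 43 genes with a WT peak, against 39.1% of all such protein-coding genes. KO specific ones were present at 2 of the 41 genes with a KO peak, Foxm1 and Trp53, against 12.3%. Most of the 43 genes with a peak had shared peaks alone. Among them were the kinase genes Cdk1, Cdk2 and Cdk4 and the cyclin genes Ccna2, Ccnb1, Ccne1 and Ccne2.

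Of the 45, 4 had at least 2 specific peaks, all WT specific. Mdm2, whose product degrades p53, had 3 WT peaks, all WT specific, and no KO peak. They had a −log10 q of 17.7, 3.19 and 21.8, and 8 KO numbers were missing in the stretch that holds them. Rbl1, a pocket protein gene related to Rb1, had 2 WT specific peaks at its higher end, with a −log10 q of 6.89 and 11.7, beside a shared peak of 60.1. E2f2 and E2f8, which encode an activating and a repressing E2F factor, had 2 each. Those of E2f2 had a −log10 q of 10.3 and 8.13, with 4 KO numbers missing around them, and those of E2f8 of 11.8 and 5.95. At 1 of the E2f8 peaks no KO number was missing.

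**Figure D5:**
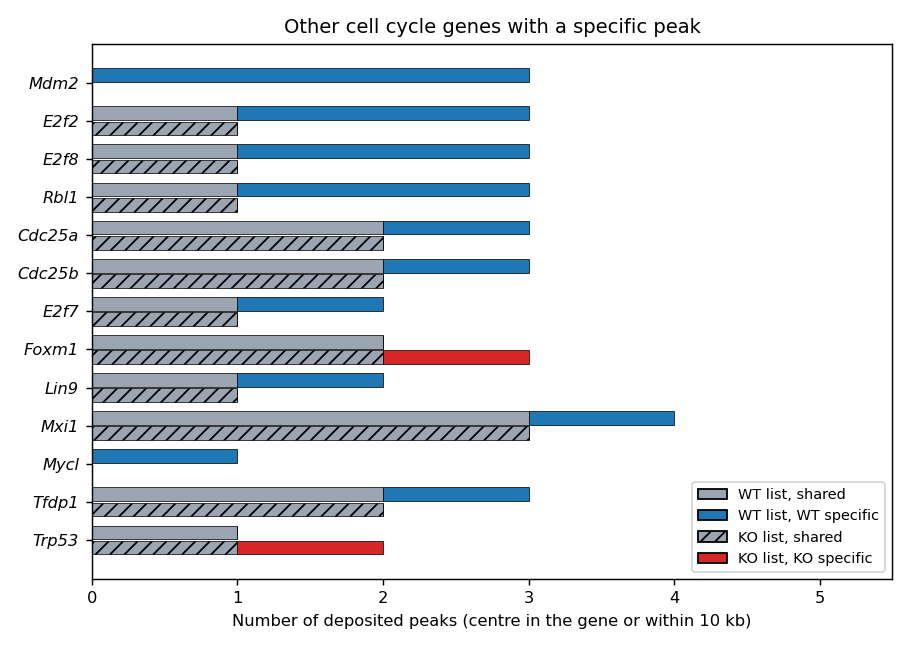
Number of deposited peaks (x axis) at the 13 of the 45 other cell cycle genes that have a specific peak, with the WT list in the upper and the KO list in the lower bar of each pair. Mdm2 and Mycl have WT specific peaks alone, and Foxm1 and Trp53 are the genes with a KO specific peak.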

How the data were processed

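ATAC-seq peak lists of C2C12 cells in growth medium were read as deposited. The lists have no header and the layout of a narrowPeak file. Per the submitters' processing notes the build is mm10. The aligner, peak caller, duplicate handling and Tn5 offset are not given in the sources used here, and each can move peak edges and numbers. The fold is a ratio and the −log10 q and −log10 p are per-peak values, all computed by the authors. The deposited whole-number score was not used. Every deposited peak name carries the replicate 1 label of its genotype, so there is 1 library of values per genotype, no replicate error and no p-value. Read depth is unknown.

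Classes are the deposited ones and equal an overlap of at least 1 bp. A peak was counted for every gene that held its centre or ended at most 10 kb from it, with gene positions from the RefSeq table of GRCm38.p6. This table gives neither exons nor, outside its promoter windows, strand. Promoter sequences are RefSeq windows of GRCm38.p6, with 250 bases before and 50 from the first base on, and 5 of the 10 genes matched. Percentiles are ranks of −log10 q within a list. Shares have 95% Wilson intervals, which cover counting only. Alternatives in the gene distance, overlap and threshold were computed. The genes and lists were chosen with earlier results of these data known. All 10 genes, all their specific peaks and the strongest peak of each list were named, and of 45 other cell cycle genes those with at least 2 specific peaks. Python 3.11.15, numpy 2.4.6, pandas 2.3.3, scipy 1.17.1, matplotlib 3.10.9 and bedtools 2.31.1 were used. Simulated intervals with known answers tested overlap and assignment, and the overlap count of the deposited lists was set against that of bedtools. Of these checks 5 of 5 were met.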

Additional observations from a re-analysis of the deposited data

How the results depend on the processing

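With 1 library of values per genotype, depth is unknown and no result can be set against replicate error. No paired analysis was possible because all values come from the replicate 1 library of each genotype and no result comes from a test. With 1 library per genotype no replicate was left out.

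The median −log10 q of the peaks at the 10 genes under the 5 alternatives computed for it ran from 11.1 to 15.1 in the WT list and from 14.4 to 15.4 in the KO list. The WT specific share ranged from 0 to 39.1% and the KO specific share from 0 to 22.2% over 11 alternatives each. The rest of this paragraph gives what moved out of its interval, or by over 1.5 times for counts of genes. Restricted to the upper 50% of each list by −log10 q, the WT specific share was 0% and the KO specific share 0%, with 0 genes having a peak of either kind. At the other cell cycle genes it was 3.33% and 0%. With a −log10 q of at least 10, 2 of the 10 genes had a WT specific peak and 0 a KO specific one, the KO specific share was 0%, and the WT specific share at the other cell cycle genes was 9.59%. Specific peaks were also weak in the whole lists, with a median −log10 q of 8.38 in each. The median of all peaks was 16.1 in the WT and 17.6 in the KO list. The specific shares of the whole lists at these thresholds are not given here. In the gene body alone 3 genes had a WT specific peak. KO specific peaks were found at 2 genes within 20 kb and by the nearest gene end, and at 4 genes within 50 kb, with an overlap of at least 50% and with a reciprocal one. The reciprocal overlap gave a KO specific share of 12.3% at the other cell cycle genes. A wider window adds peaks and a stricter overlap removes partners by construction, and other causes were not tested. Whole-list shares under the stricter overlaps, and counts over all protein-coding genes in the other windows, are not given here. The higher counts are therefore not read as particular to these genes. A last alternative, chosen after seeing the data, counted a peak as specific only where no call number of the other list was missing around it. It gave 4.35% at the 10 genes for the WT list (1 gene, Cdk6) and 0% for the KO list (0 genes), and 5.75% and 0% at the other cell cycle genes. The whole lists gave 3.51% and 1.21%.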

Other observations

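In the deposited specific lists an unlabelled last column is filled for some peaks. It was filled for none of the 5 WT specific peaks at the 10 genes and not for the KO specific peak, against 10.7% of all WT specific and 2.22% of all KO specific peaks.

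Below Cdkn2a, 23.9 kb from the gene, a shared peak had a −log10 q of 18.6 in the WT list and of 4.30 in the KO list. The neighbouring shared peak 16.5 kb from the gene had 28.3 and 33.8. Both lie outside the limit of 10 kb. The values describe a peak within its own list, so no change is read from them.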
